A study of Mus musculus with 12 samples.

Results

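Cytokine messenger RNAs are short-lived because RNA-binding proteins mark them for destruction, and 7 genes of that machinery were followed in mouse dendritic cells given lipopolysaccharide (LPS). The genes are Zfp36, Zfp36l1, Zfp36l2, Zc3h12a, Zc3h12c, Rc3h1 and Elavl1. They were chosen by name, and array probes were assigned to them through the RefSeq accession printed for each probe, with the brightest probe standing for a gene that had more than 1. Of the 7 genes, 6 had a probe and were tested among 11095 genes in all. Zc3h12c had no probe matched to it and was not analysed here. The cells were grown from the marrow of mouse femur and tibia after removal of B and T cells with antibodies and magnetic beads. Every group had the same culture, 5 days in medium with 2 recombinant cytokines, 10 ng/ml of GM-CSF and 5 ng/ml of IL-4, and the cells that came off by repeated pipetting were collected, with no sort for dendritic cells named in the labels. The groups are unstimulated cells and cells given LPS at 100 ng/ml for 1, 6 or 24 h, with 3 samples each and 12 arrays in all. The labels call the 3 samples of a group biological replicates and give each a donor letter, A, B or C, and p-values measure the spread between these samples. The strain, age and sex of the mice were not given in the sources used here, and no untreated culture accompanied the later times, so time in culture and LPS cannot be told apart. Every array held a Cy5-labelled sample and a Cy3-labelled pool of mouse RNA, the Universal mouse reference, and a level below is the log2 ratio of sample to reference. Levels of different genes are not comparable on this scale, because each depends on how much of that transcript the reference holds.

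The proteins differ in what they recognise and in what follows. Zfp36 (tristetraprolin) and its relatives Zfp36l1 and Zfp36l2 bind AU-rich elements in the 3′ untranslated region of cytokine transcripts and recruit the CCR4-NOT deadenylase, which shortens the poly(A) tail and starts decay. Zc3h12a (Regnase-1) and its relative Zc3h12c (Regnase-3) are endoribonucleases, and Rc3h1 (Roquin-1) binds stem-loops, a class of site that Regnase-1 also cuts. Elavl1 (HuR) works in the opposite sense, since it binds AU-rich and U-rich sequences and stabilises many of the same transcripts. Zfp36 is a classical immediate early gene, and its own transcript carries AU-rich elements. Dendritic cells sense LPS, which comes from the outer membrane of Gram-negative bacteria, through the receptor Tlr4.

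The upstream sequences of 3 of these genes are shown because their transcripts behaved differently after LPS: Zfp36 rose and fell within hours, Zfp36l1 was lower at 6 and 24 h than at 1 h, and Elavl1 was lowest at 24 h by the probe used. Each is the 250 bases before the annotated start of the gene in RefSeq on GRCm38.p6, read 5′ to 3′ along the gene. Capitals mark every match, on either strand, to the consensus of NF-kB, of serum response factor (the CArG box), of AP-1 (TGANTCA), of CRE (TGACGTCA), of EGR factors (GCGNGGGCG) or of STAT dimers (TTCNNNGAA). The Zfp36 window is chr7:28379229-28379478 on the minus strand, that of Zfp36l1 is chr12:80113014-80113263 on the minus strand, and that of Elavl1 is chr8:4325101-4325350 on the minus strand.
Zfp36: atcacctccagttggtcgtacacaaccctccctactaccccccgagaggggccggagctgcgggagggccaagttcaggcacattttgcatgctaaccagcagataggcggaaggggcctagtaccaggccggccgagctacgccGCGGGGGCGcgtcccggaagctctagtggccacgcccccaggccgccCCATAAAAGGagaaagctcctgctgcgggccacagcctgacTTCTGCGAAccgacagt
Zfp36l1: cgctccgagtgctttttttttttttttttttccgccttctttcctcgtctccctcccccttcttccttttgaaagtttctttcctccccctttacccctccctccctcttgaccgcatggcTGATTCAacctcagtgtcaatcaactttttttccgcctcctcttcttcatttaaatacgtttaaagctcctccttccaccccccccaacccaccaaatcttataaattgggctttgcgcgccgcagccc
Elavl1: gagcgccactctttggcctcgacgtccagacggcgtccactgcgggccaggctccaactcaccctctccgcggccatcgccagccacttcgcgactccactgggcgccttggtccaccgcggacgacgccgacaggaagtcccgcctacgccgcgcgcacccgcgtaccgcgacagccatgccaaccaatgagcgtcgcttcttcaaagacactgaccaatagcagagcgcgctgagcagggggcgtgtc

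Positions below are those of a match's first base, counted back from the start. The Zfp36 window held a CArG box at -58, an EGR match at -105 and a STAT match at -17. Of 32851 windows of 250 bases in the RefSeq table, 1.47% held a CArG box, 4.7% an EGR match and 7.02% a STAT match. A GC box (GGGCGG, in 32.7% of windows) began at -63 and overlapped the CArG box. The Zfp36l1 window held an AP-1 match at -129, found in 6.75% of windows, and a TATAAA run at -29, found in 12.4%. The Elavl1 window held none of the motifs searched. Among the other members, Rc3h1 had an AP-1 match at -133 and 5 GC boxes, and Zc3h12a had 5 GC boxes and no other match. An NF-kB consensus, found in 7.25% of windows, was present at -236 in a window of Zc3h12c and in no other member's, and CRE matches (1.55% of windows) were present in none of these windows. Zfp36l2 had no window in the table. A match describes these letters and is not evidence that a factor bound there, and binding was not measured.

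The 12 arrays differed in brightness. The median Cy5 signal above background was 24 to 44 intensity units per array, and in Cy5 between 48.7 and 58.1% of the probes passed the scanner software's test for being well above background. Slide and group were partly tied. Of 4 slides, the first carried all unstimulated arrays plus donor A at 1 h, and the second carried donor B at 1 h and at 24 h. The third carried donor C at 1 h plus donors A and B at 6 h, and the fourth the rest. The reference channel of slide 2 stood apart, with median Cy3 signals above background of 47 and 43 against 21 to 29 on the other 10 arrays. Of 11 markers of conventional dendritic cells 10 were tested, with a mean log2 ratio of 2.84 to 3.47 over all arrays. Among them Flt3 passed on 7 arrays, and the untested Cd209a passed on none. Of 6 macrophage or monocyte markers tested, 4 passed on all 12 arrays, and the mean of the 6 was 0.9 to 1.8. For 2 tested erythroid markers the mean was 1.61 to 2.24. Such means are relative to the reference and do not rank cell types by amount. Neutrophil markers were also present, and their mean log2 ratio over 10 tested genes fell from 2.43 to 2.86 in unstimulated cells to 1.66 to 1.96 at 1 h, 1.23 to 1.72 at 6 h and 1.18 to 1.78 at 24 h, with 4, 7 and 8 genes lower and 0, 2 and 2 higher, while the neutrophil gene Elane passed on none. The part of this shift in the results below was not tested. In RNA from a whole culture, fewer cells of a type and less RNA per cell cannot be told apart.

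Zfp36 rose sharply at 1 h, and most of the rise was gone by 6 h. Its change at 1 h was larger than that of any other member measured there, except with the scanner software's processed signals, where it was 2.64 and that of Zc3h12a, not well above background in unstimulated cells, was 3.39. On the unstimulated arrays of donors A, B and C its log2 ratio was -0.97, -1.05 and -0.76. At 1 h the values were 1.68, 1.43 and 1.61, at 6 h they were -0.45, -0.22 and -0.49, and at 24 h they were -0.19, 0.16 and 0.41. No group overlapped another, and the order of the means ran from 1 h (1.57 ± 0.13, SD, n = 3) through 24 h (0.13 ± 0.30) and 6 h (-0.38 ± 0.15) to unstimulated cells (-0.93 ± 0.15). Over all genes tested, 30.7, 53.9 and 52.3% did not overlap with unstimulated cells at 1, 6 and 24 h. The shares were 40.8% between 1 h and 6 h, 35% between 6 h and 24 h and 39% between 1 h and 24 h. A lack of overlap was thus common, and it is given here and below as a description. In the Cy5 channel alone, the spot stood 528.5 to 694 units above background in unstimulated cells and 3575.5 to 6973 units at 1 h.

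At 1 h Zfp36 was 5.67-fold higher than in unstimulated cells, a log2 change of 2.50 with a standard error of 0.16 (adjusted p = 6.8e-07 in limma's test over all genes). From 1 h to 6 h it fell by 1.96 on the log2 scale, or 3.89-fold (adjusted p = 1.7e-06), and at 6 h it remained 1.46-fold above unstimulated cells (0.55, adjusted p = 0.014). At 24 h it was 2.08-fold above unstimulated cells (1.05, adjusted p = 0.00021). The change at 1 h lay between 1.56 and 2.84 under every alternative, with slide as a block at 2.61 (adjusted p = 0.00013), and the difference within slide 1 was 2.61. The 24 h rise in the fit blocked by slide was 1.31 (adjusted p = 0.02). No slide held both unstimulated and 24 h arrays. The value within slides, 1.34, adds the 1 h difference within slide 1 to the difference between 24 h and 1 h within slide 2. It thus rests on 1 array at 24 h, on the slide whose reference channel stood apart. The residual rise at 6 h was less firm, at 0.70 when slide was a block (adjusted p = 0.15) and 0.69 with median centring in place of loess (adjusted p = 0.11), and it missed the threshold without the unstimulated array of donor B (0.48, adjusted p = 0.055) or the 6 h array of donor B (0.46, adjusted p = 0.062). Its value within slides, chained in the same way through the 1 h arrays of slides 1 and 3, was 0.68.

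Between 6 h and 24 h Zfp36 went up again, by a small step. The 24 h mean lay 0.51 above the 6 h mean (1.42-fold, adjusted p = 0.039), and the groups did not overlap, with a gap from -0.22 to -0.19. This call was lost when the unstimulated array of donor A was left out (0.51, adjusted p = 0.055), likewise the 6 h array of donor A (0.48, adjusted p = 0.12) or C (0.46, adjusted p = 0.10), and the 24 h array of donor B (0.49, adjusted p = 0.084) or C (0.37, adjusted p = 0.15). Blocked by slide the difference was 0.62 (adjusted p = 0.094), and median centring brought it to 0.23 (adjusted p = 0.69). It was lost under 6 further alternatives too, with values from 0.26 to 0.57.

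**Figure D1:**
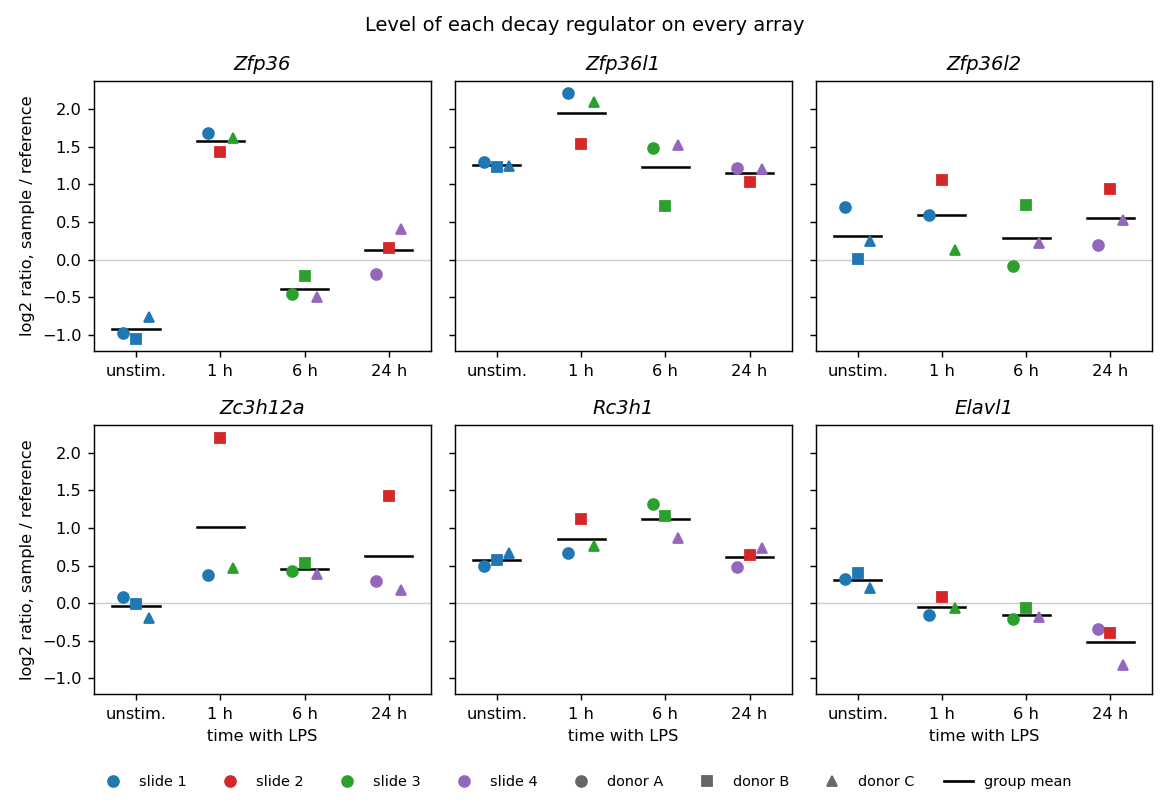
Log2 ratio of sample to reference (vertical axis) of the 6 measured genes on each of the 12 arrays, by time with LPS; colour gives the slide, shape the donor letter and the bar the mean of 3 arrays. Zfp36 at 1 h sits between 1.43 and 1.68, above every other array of that gene, and the highest Zc3h12a values, 2.19 and 1.42, are those of slide 2.

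A dimmer second probe of Zfp36 was also highest at 1 h but did not show the higher level at 24 h. It was well above background on none of the unstimulated and 6 h arrays, was so on all 3 arrays at 1 h and was so on 1 of 3 at 24 h. Its means were -0.07 ± 0.09 (SD, n = 3), 0.55 ± 0.22, 0.05 ± 0.02 and 0.05 ± 0.01 in unstimulated cells and at 1, 6 and 24 h. It passed the filter only through its 1 h arrays, so its difference between 1 h and the other groups is given as a description and supports nothing. Fitted among all 21750 probes, it differed by 0.12 between 24 h and unstimulated cells (adjusted p = 0.46) and by 0.00 between 24 h and 6 h (adjusted p = 0.99).

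Zfp36l1, which shares the zinc finger domain of Zfp36, moved over a narrower range. Its log2 ratio was 1.30, 1.23 and 1.24 on the unstimulated arrays of donors A, B and C, and 2.21, 1.53 and 2.09 at 1 h. The values were 1.48, 0.71 and 1.52 at 6 h, and 1.22, 1.03 and 1.20 at 24 h. Each 1 h array was above each array of the other groups, although the lowest, that of donor B at 1.53, lay within 0.01 of the highest 6 h array. The rise at 1 h, 0.69 (1.61-fold, 95% interval 0.22 to 1.15), did not pass the test (adjusted p = 0.072). The difference within slide 1 was 0.96. It passed with the donor letter as a block (adjusted p = 0.020), without slide 2 (0.89, adjusted p = 0.031), without the 1 h array of donor B (0.89, adjusted p = 0.033) and without the 6 h array of donor B (0.69, adjusted p = 0.026).

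The later fall of Zfp36l1 did pass. It was 0.71 lower at 6 h than at 1 h on the log2 scale (1.63-fold, adjusted p = 0.026) and 0.80 lower at 24 h than at 1 h (1.74-fold, adjusted p = 0.014). With slide as a block the log2 changes were -0.76 and -0.83 (adjusted p = 0.044 for both), within slides -1.0 and -0.50, with backgrounds as deposited -0.74 for the first (adjusted p = 0.071), and with median centring -0.43 (adjusted p = 0.58) and -0.88 (adjusted p = 0.21). Without the 1 h array of donor A they were -0.57 (adjusted p = 0.11) and -0.66 (adjusted p = 0.063), and without that of donor C -0.64 (adjusted p = 0.085) and -0.72 (adjusted p = 0.055). The first of the changes was also lost without the 6 h array of donor B (-0.44, adjusted p = 0.11). Against unstimulated cells the log2 change was -0.02 at 6 h (95% interval -0.49 to 0.44) and -0.11 at 24 h (-0.57 to 0.35), and neither passed.

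Zfp36l2, the other relative on the array, showed no called difference between any groups. Its log2 ratio was 0.70, 0.01 and 0.25 in unstimulated cells, 0.59, 1.06 and 0.13 at 1 h, -0.08, 0.72 and 0.22 at 6 h, and 0.19, 0.94 and 0.53 at 24 h. All 4 groups overlapped, and the arrays of slide 2 gave the highest values, 1.06 and 0.94. The 95% intervals of the log2 change against unstimulated cells were -0.33 to 0.87 at 1 h, -0.63 to 0.56 at 6 h and -0.37 to 0.83 at 24 h. These leave room for changes of the size seen in Zfp36l1.

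Zc3h12a, the endoribonuclease Regnase-1, was a weak signal that was not measured in unstimulated cells, and none of its changes passed the test. It was well above background on 0 of 3 unstimulated arrays, 2 of 3 at 1 h, 3 of 3 at 6 h and 1 of 3 at 24 h. The Cy5 signal above background was 10, -1 and -3.5 units in unstimulated cells. It was 29.5, 223 and 33.5 units at 1 h, 33, 48 and 28 at 6 h, and 18, 117 and 19 at 24 h. The probe passed the filter only through its 6 h arrays, so the comparison with unstimulated cells is a description. Each of the 9 LPS arrays was brighter than the brightest unstimulated array, and the outlying values of 223 and 117 were those of donor B on slide 2. The Cy3 signal of the same spot was low there too, at 12 and 9.5 units.

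The log2 ratios of Zc3h12a also put each LPS array above each unstimulated one, at 0.08, -0.01 and -0.20 in unstimulated cells, 0.38, 2.19 and 0.47 at 1 h, 0.43, 0.54 and 0.39 at 6 h, and 0.29, 1.42 and 0.17 at 24 h. No LPS group overlapped the unstimulated one, as in 30.7, 53.9 and 52.3% of all genes at 1, 6 and 24 h. The LPS groups overlapped each other. In the fit none of the changes passed: 1.06 at 1 h (standard error 0.41, adjusted p = 0.14), 0.49 at 6 h (adjusted p = 0.38) and 0.67 at 24 h (adjusted p = 0.22). The unstimulated level was not measured, so each LPS group's mean Cy5 signal was set over the lowest signal called above background, or the probe's own where higher. After loess and scaling between arrays these ratios were 1.85-fold at 1 h, 1.35-fold at 6 h and 1.43-fold at 24 h. They are descriptions and not lower bounds. Only 2 of 3 arrays at 1 h and 1 of 3 at 24 h were well above background, and the 6 h arrays are those that admitted the probe. Dye bias is possible on this scale, since every sample was labelled with Cy5. The outcome turned on slide 2 and on how the background was handled. The ratios at 1 h and 24 h rest on the slide 2 arrays. Without slide 2 the log2 changes were 0.47 at 1 h (adjusted p = 0.058) and 0.27 at 24 h (adjusted p = 0.11), both smaller than those ratios on the log2 scale. At 6 h, which has no array on slide 2, the change was the same 0.49 and passed (adjusted p = 0.0035), in an alternative chosen after seeing the data. With the scanner software's own background-subtracted signals the changes were 3.39, 3.36 and 2.83 at 1, 6 and 24 h, and all 3 passed (adjusted p = 0.0049, 0.00091 and 0.0025). The probe passed the filter only through its 6 h arrays, so these calls are descriptions and support nothing. An offset of 10 instead of 50 in the background correction gave 1.85, 1.10 and 1.28, none of which passed (adjusted p = 0.08, 0.16 and 0.10). In the fit blocked by slide the changes were 0.43 at 1 h (adjusted p = 0.32), 0.25 at 6 h (adjusted p = 0.55) and -0.09 at 24 h (adjusted p = 0.85). The 24 h change within slides, chained through the 1 h arrays, was -0.34.

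**Figure D2:**
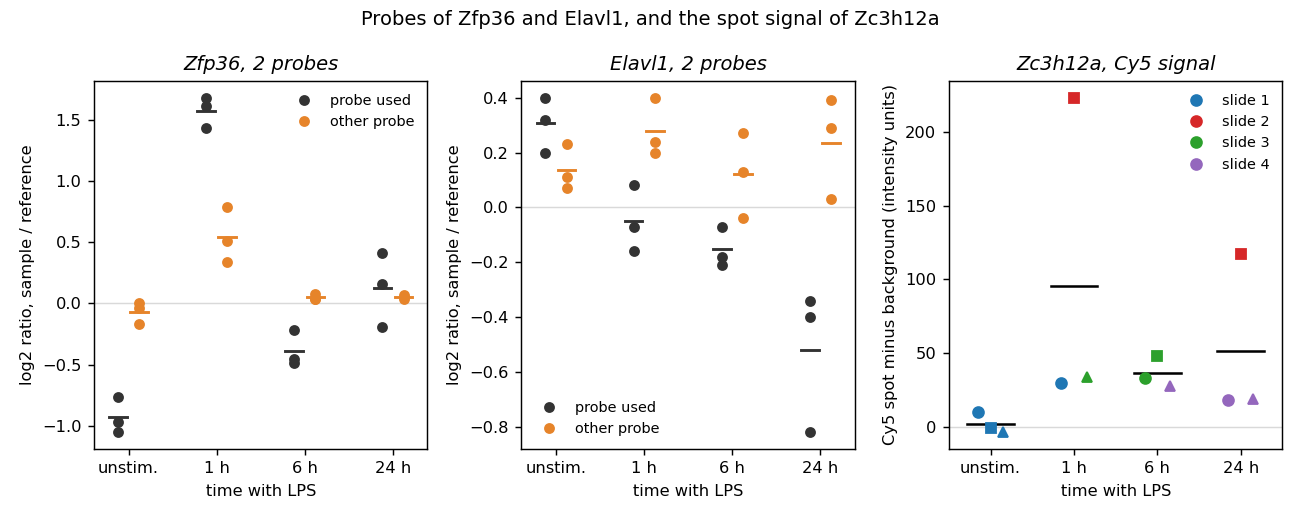
Log2 ratio of sample to reference for both probes of Zfp36 and of Elavl1 (left and middle; points are arrays, bars are means of 3), and Cy5 spot signal minus local background in intensity units for Zc3h12a (right; colour gives the slide, bars are means). The 2 Zfp36 probes both peak at 1 h, the 2 Elavl1 probes part at 24 h, and Zc3h12a lies between -3.5 and 10 units in unstimulated cells and between 18 and 223 units with LPS.

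Rc3h1, the stem-loop binding protein Roquin-1, was higher at 6 h than in unstimulated cells and than at 24 h. Its log2 ratio was 0.49, 0.57 and 0.66 in unstimulated cells and 0.66, 1.12 and 0.76 at 1 h. At 6 h it was 1.32, 1.16 and 0.87, and at 24 h it had returned to 0.48, 0.64 and 0.73. The 6 h arrays lay above all unstimulated and all 24 h arrays, and overlapped those of 1 h. The rise at 6 h was 0.54, or 1.46-fold (standard error 0.15, adjusted p = 0.011), and the fall from 6 h to 24 h was 0.50 on the log2 scale, or 1.41-fold (adjusted p = 0.036). The changes at 1 h (0.27, adjusted p = 0.28) and at 24 h (0.05, adjusted p = 0.84) did not pass. In the order of means, 1 h lay between 6 h and 24 h, and no pair of neighbours differed beyond the error.

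The size of these changes of Rc3h1 was modest and depended on the arrays of 6 h. With slide as a block the 6 h rise was 0.36 (adjusted p = 0.41), while the chained difference within slides was 0.56. With the local background of every spot as deposited it was 0.17 (adjusted p = 0.66), and without the 6 h array of donor A it was 0.44 (adjusted p = 0.059). The fall to 24 h lost its call without any 1 of the 24 h arrays (-0.43, -0.51 and -0.55 for donors A, B and C, adjusted p = 0.11, 0.064 and 0.057). The same happened without the 6 h array of donor A (-0.40, adjusted p = 0.15) or B (-0.47, adjusted p = 0.10). A slide block gave -0.47 (adjusted p = 0.14), and it was -0.26 within slide 4, -0.13 with backgrounds as deposited (adjusted p = 0.76) and -0.57 with an offset of 10 (adjusted p = 0.053).

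Elavl1, the stabilising factor HuR, went down by the probe used. Its log2 ratio was 0.32, 0.40 and 0.20 in unstimulated cells and -0.16, 0.08 and -0.07 at 1 h. It was -0.21, -0.07 and -0.18 at 6 h, and -0.34, -0.40 and -0.82 at 24 h. All unstimulated arrays lay above all LPS arrays, and all 24 h arrays below the rest. The change was -0.36 at 1 h (standard error 0.14, adjusted p = 0.13), -0.46 at 6 h (adjusted p = 0.017) and -0.83 at 24 h (1.77-fold lower, adjusted p = 0.00047). From 1 h to 24 h the log2 ratio fell by 0.47 (adjusted p = 0.022).

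The second probe of Elavl1 did not show this decline. Its log2 ratio was 0.23, 0.11 and 0.07 in unstimulated cells, 0.24, 0.40 and 0.20 at 1 h, 0.13, 0.27 and -0.04 at 6 h, and 0.29, 0.39 and 0.03 at 24 h. It was well above background on all 12 arrays, with Cy5 signals of 519 to 809.5 units above background against 1930 to 5686.5 for the probe used. Its changes of 0.14, -0.02 and 0.10 at 1, 6 and 24 h did not pass (adjusted p = 0.53, 0.94 and 0.58 over all probes). When both probes were averaged, the change at 24 h was -0.36 (adjusted p = 0.035), that at 6 h -0.24 (adjusted p = 0.15) and that from 1 h to 24 h -0.26 (adjusted p = 0.15). Blocked by slide, the brighter probe gave -0.54 at 6 h (adjusted p = 0.19), -0.94 at 24 h (adjusted p = 0.039) and -0.47 between 1 h and 24 h (adjusted p = 0.093), and within slides it gave -0.54, -0.95 and -0.48. The 6 h call was lost without the unstimulated arrays of donors A (-0.45, adjusted p = 0.052) or B (-0.41, adjusted p = 0.062) or the 6 h array of donor A (-0.43, adjusted p = 0.061). The call from 1 h to 24 h was lost without the 1 h arrays of donors B (-0.40, adjusted p = 0.063) or C (-0.48, adjusted p = 0.053), without the 24 h array of donor C (-0.32, adjusted p = 0.088) and without slide 2 (-0.46, adjusted p = 0.056). Median centring gave -0.37 at 6 h (adjusted p = 0.31) and -0.53 from 1 h to 24 h (adjusted p = 0.19), and the latter also missed the threshold with backgrounds as deposited (-0.45, adjusted p = 0.053) and with Cy5 alone (-0.39, adjusted p = 0.058). A direction for Elavl1 is therefore a statement about 1 of its 2 probes.

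**Figure D3:**
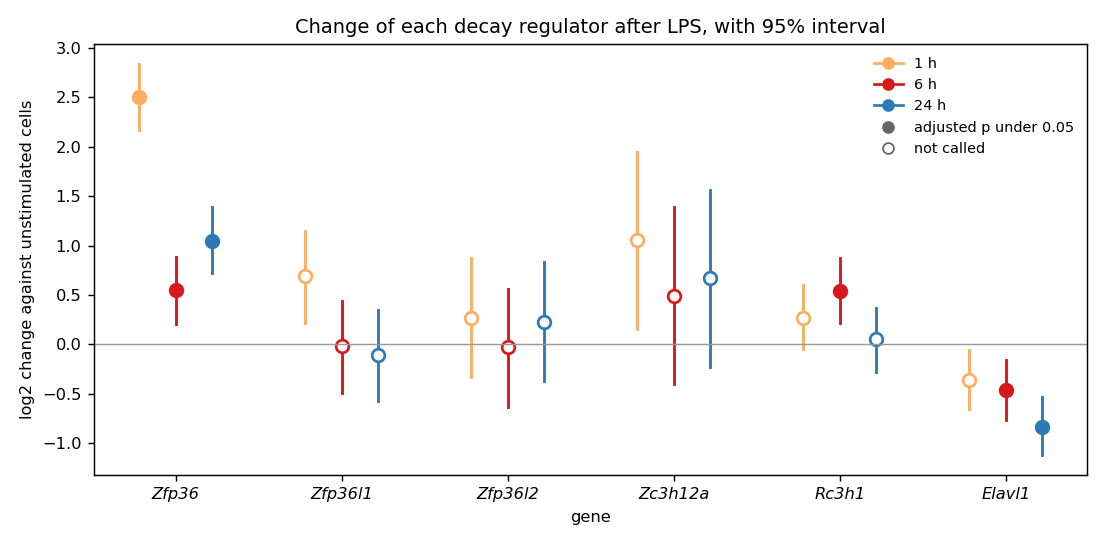
Log2 change against unstimulated cells (vertical axis) of each measured gene at 1, 6 and 24 h, with the 95% interval of the limma fit; filled points have an adjusted p under 0.05 and open points do not. Zfp36 at 1 h (2.50) stands far above the rest, Elavl1 lies below 0 at every time, and the intervals of Zc3h12a are the widest.

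The numbers of members called were not far from the shares over all genes, and the comparisons share arrays. At 1 h 1 of 6 was called, higher, where 7.44% of all genes were called, 4.05% higher and 3.39% lower. At 6 h 2 were higher and 1 lower, where 39.6% of genes were called, 16.1% higher and 23.6% lower. At 24 h 1 was higher and 1 lower, where 39.4% were called, 17.9% higher and 21.4% lower. Between 1 h and 6 h 2 of 6 fell, Zfp36 and Zfp36l1, against 28.2% of genes called, 12% higher and 16.2% lower. Between 6 h and 24 h Zfp36 rose and Rc3h1 fell, against 18.4% called, 9.65% higher and 8.73% lower. Between 1 h and 24 h 3 fell, Zfp36, Zfp36l1 and Elavl1, against 28.8% called, 13% higher and 15.8% lower. By a test for any difference among the 4 groups, 4 of 6 members passed (Zfp36, adjusted p = 6.6e-07; Elavl1, 0.0021; Zfp36l1, 0.022; Rc3h1, 0.026), as did 51.7% of all genes. The split of all genes into higher and lower depended on the scaling: with median centring 79.6% of the called genes were higher at 1 h in place of 54.4%, 67.3% at 6 h in place of 40.6%, and 35.6% at 24 h in place of 45.6%. It was 83.1% in place of 42.6% from 1 h to 6 h and 10.4% in place of 52.5% from 6 h to 24 h. A slide block gave 75.6% at 1 h, and with Cy5 alone 37.5%. The median change of all genes under median centring was -0.12, 0.05 and -0.11 at 1, 6 and 24 h, 0.13 from 1 h to 6 h and -0.18 from 6 h to 24 h.

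For each member that passed this test, the genes with the most similar log2 ratios over the 12 arrays were found by Pearson correlation. The search covered the 11081 genes without missing values, with the member itself left out. These correlations are descriptions, and the 12 arrays share their groups, slides and reference. For Zfp36 the closest were Phlda1 (r = 0.971), the immediate early nuclear receptor Nr4a1 (r = 0.971) and Tmem88 (r = 0.964). Phlda1 had log2 changes of 2.89 at 1 h and 0.66 at 6 h, and Tmem88 of 1.92 and 0.10. For Zfp36l1 they were Yrdc (r = 0.933), Mak (r = 0.883) and Trib1 (r = 0.872). For Rc3h1 they were Prkx (r = 0.929), Ptprj (r = 0.929) and Wac (r = 0.927), and for Elavl1 Thumpd1 (r = 0.985), Noc3l (r = 0.974) and Strap (r = 0.972). Across the members themselves, Zfp36 and Zfp36l1 correlated at r = 0.66 over the 12 arrays, and Zfp36 and Elavl1 at r = -0.32.

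Genes of the decay machinery downstream of these proteins are read below against the shares over all genes given above, 4.05% higher and 3.39% lower at 1 h, 16.1% and 23.6% at 6 h, and 17.9% and 21.4% at 24 h. Of 17 tested genes of deadenylation, 2 rose at 1 h and none fell. Both encode adaptors that bind the CCR4-NOT deadenylase. Btg2 was 4.01-fold higher (log2 change 2.01, adjusted p = 1.4e-06) and back to -0.04 at 6 h, and Btg1 was 2.73-fold higher (1.45, adjusted p = 0.0073) and still 1.64 higher at 6 h and 1.42 higher at 24 h. At 6 h 2 genes of this list were higher and 2 lower, with Cnot6l, a catalytic deadenylase subunit, at 0.62 and Pan3 at -0.63, and at 24 h 3 were higher and 1 lower. The median change of the list was 0.00, -0.04 and -0.04 at 1, 6 and 24 h, beside 0.02, -0.04 and 0.02 for all genes.

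The RNA exosome, which degrades transcripts from the 3′ end once the tail is gone, was the pathway list with the most even response. Of 11 tested genes none was called at 1 h, and 8 were lower and 0 higher at 6 h and again at 24 h, with medians of -0.12, -0.57 and -0.53, where 23.6% and 21.4% of all genes were lower at 6 h and 24 h. At 24 h Exosc8 was at -1.68, Exosc2 at -1.31, Exosc3 at -1.11 and the catalytic subunit Dis3 at -1.08, and each of these kept its call under every one of 6 other treatments of background, scaling and slide. The count of lower genes at 6 h was 4 with the local background of every spot as deposited, 3 with slide as a block and 2 with median centring, and at 24 h it was 5, 5 and 7, with none higher in any of these. Genes of decapping and decay from the 5′ end were mixed. Of 14, 1 was lower at 1 h, 3 were higher and 5 lower at 6 h, and 2 were higher and 6 lower at 24 h. The fallers included 3 subunits of Lsm rings, Lsm5 (-1.40 at 24 h), Lsm7 (-1.36) and Lsm3 (-1.06), and the scavenger decapping enzyme Dcps (-1.24). Lsm5 was also the 1 h call, at -0.74, but no gene of the list was called at 1 h under 10 of the 13 alternatives, among them backgrounds as deposited, median centring and the slide block. The list medians were -0.15, -0.11 and -0.13.

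Of 6 genes of UPF1 and nonsense-mediated decay, on which Regnase-1 depends, none was called at 1 h. Upf3b was lower at 6 h (-0.77) and at 24 h (-0.65), and Smg9 was higher at 24 h (0.55), while Upf1 itself had changes of 0.04, -0.14 and 0.08 that did not pass. Of 19 other proteins that bind AU-rich elements or cytokine transcripts, none was higher and 1 lower at 1 h, 5 were higher and 4 lower at 6 h, and 3 were higher and 9 lower at 24 h. At 24 h the nuclear ribonucleoproteins Hnrnpab (-1.49) and Hnrnpa1 (-0.83) and the stress granule protein G3bp1 (-1.08) were lower, and the poly(A) binding protein Pabpc1 (0.77) was higher. With median centring the 24 h counts of this list were 1 higher and 5 lower, and with slide as a block 1 and 2. Of 7 listed family relatives of the members, 2 were tested, Zc3h12d and the neuronal Elavl4. Elavl4 passed the filter only through its unstimulated arrays, and its call at 24 h, where none of its arrays was well above background, was lost in several alternatives and is not used here.

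**Figure D4:**
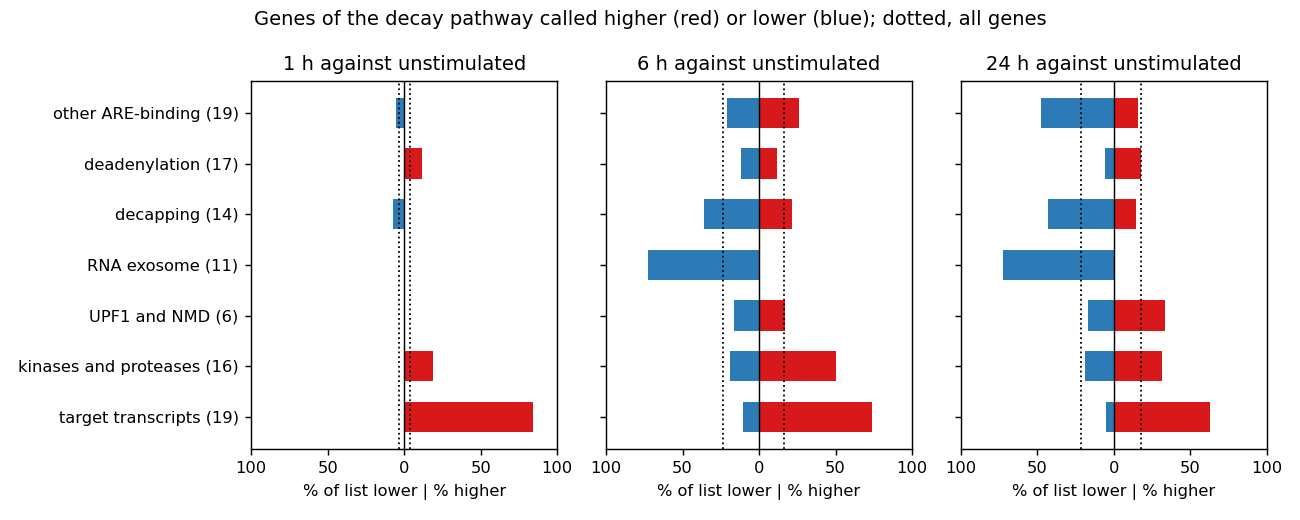
Percentage of the tested genes of each list (number in brackets) called higher (red, to the right) or lower (blue, to the left) at 1, 6 and 24 h against unstimulated cells, with dotted lines at the percentages over all genes. The bar of the RNA exosome list has no red part at any time, and 8 of its 11 genes are lower at 6 h and at 24 h.

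Some genes that act on the regulators also rose at 1 h. Of 16 tested kinases, phosphatases, proteases and their partners, 3 were higher and none lower at 1 h, 8 higher and 3 lower at 6 h, and 5 higher and 3 lower at 24 h. Dusp1, the phosphatase that switches off p38 kinase and so keeps Zfp36 in its active form, was 6.84-fold higher at 1 h (2.77, adjusted p = 7.7e-07), 2.46-fold at 6 h and 4.87-fold at 24 h. Like Zfp36 it fell from 1 h to 6 h (by 1.48, adjusted p = 5.5e-05). It rose again from 6 h to 24 h (by 0.99, adjusted p = 0.0024), a step that in Zfp36 lost its call under many alternatives. Malt1, the protease that cleaves Regnase-1 and Roquin-1, was higher by 1.58, 1.74 and 1.58 at 1, 6 and 24 h. Mapkapk2, the kinase that phosphorylates Zfp36 and restrains it, was higher by 0.91, 1.81 and 1.14, while Mapk14, which encodes p38 alpha and acts just above it, had log2 changes of -1.42 at 6 h and -0.83 at 24 h, both called. The signs of these 4 genes at the times they were called were the same under each of the 6 other treatments of the data. With slide as a block 1 gene of the list was higher at 1 h, and at 6 h 4 were higher and 1 lower with backgrounds as deposited, and 4 and 2 with median centring.

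Most of the cytokine and other transcripts listed as targets were higher after LPS, and they differed in how they went on after 1 h. Many of these transcripts are among the best known LPS responses, so the list's direction is not independent evidence about the regulators. Of 19 tested, 16 were higher at 1 h and none lower, 14 were higher and 2 lower at 6 h, and 12 were higher and 1 lower at 24 h, with medians of 2.74, 2.33 and 1.81. Il23a, Cxcl1, Cxcl2 and Ptgs2 were well above background on no unstimulated array and passed the filter only through LPS arrays. Their calls are descriptions, and the counts and medians include them. Another 5 listed targets, Il10, Il12b, Csf2, Csf3 and Lif, were not tested. From 1 h to 6 h 6 fell and none rose: Nfkbiz (by 2.46), Nfkbid (by 2.15), Fos, Plk3 (by 1.21), Ier3 (by 1.16) and Tnf (by 0.73). Fos was not well above background at 6 h, so no size is given for its fall. It is also 1 of the 2 lower than unstimulated cells at 6 h, where its sign turned in some of the alternatives (from -1.69 to 0.36). Nfkbid, an inhibitor-like NF-kB protein and a Roquin-1 target, was at 0.92, 1.15 and 0.77 in unstimulated cells, 3.60, 3.72 and 3.72 at 1 h, 1.51, 1.38 and 1.69 at 6 h, and 1.04, 1.45 and 0.92 at 24 h, so that at 24 h it overlapped the unstimulated arrays. Tnf, the founding target of Zfp36, came down more slowly, from 5.78, 6.00 and 5.64 at 1 h to 5.19, 5.31 and 4.75 at 6 h and 3.37, 3.52 and 3.76 at 24 h, against 0.63, 0.88 and 0.41 in unstimulated cells. No group of Tnf arrays overlapped another.

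For Il6 and Il1b no change after 1 h passed the test. Il6, a target of Regnase-1, had a log2 ratio of 7.39, 8.44 and 6.77 at 1 h, 8.17, 8.43 and 7.02 at 6 h and 6.44, 7.71 and 7.67 at 24 h, and all 3 groups overlapped. Its change from 1 h to 6 h was 0.34 (adjusted p = 0.62) and from 1 h to 24 h -0.26 (adjusted p = 0.73). Il1b changed by -0.05 from 1 h to 6 h (adjusted p = 0.92) and by 0.10 from 1 h to 24 h (adjusted p = 0.86). Other listed targets moved either way. Ptgs2, which encodes cyclooxygenase-2 and was not well above background in unstimulated cells, was at least 6.33-fold higher at 1 h, 18.1-fold at 6 h and 21.2-fold at 24 h, and Vegfa rose by 1.32 between 6 h and 24 h. Between 1 h and 24 h 11 of the 19 fell and 2 rose, Ptgs2 and Vegfa, and between 6 h and 24 h 5 fell (Tnf, Nfkbiz, Myc, Ccl2 and Ccl3) and 1 rose, Vegfa. These comparisons share arrays with those of the members, and a relation between the members' levels and the targets' levels was not tested.

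**Figure D5:**
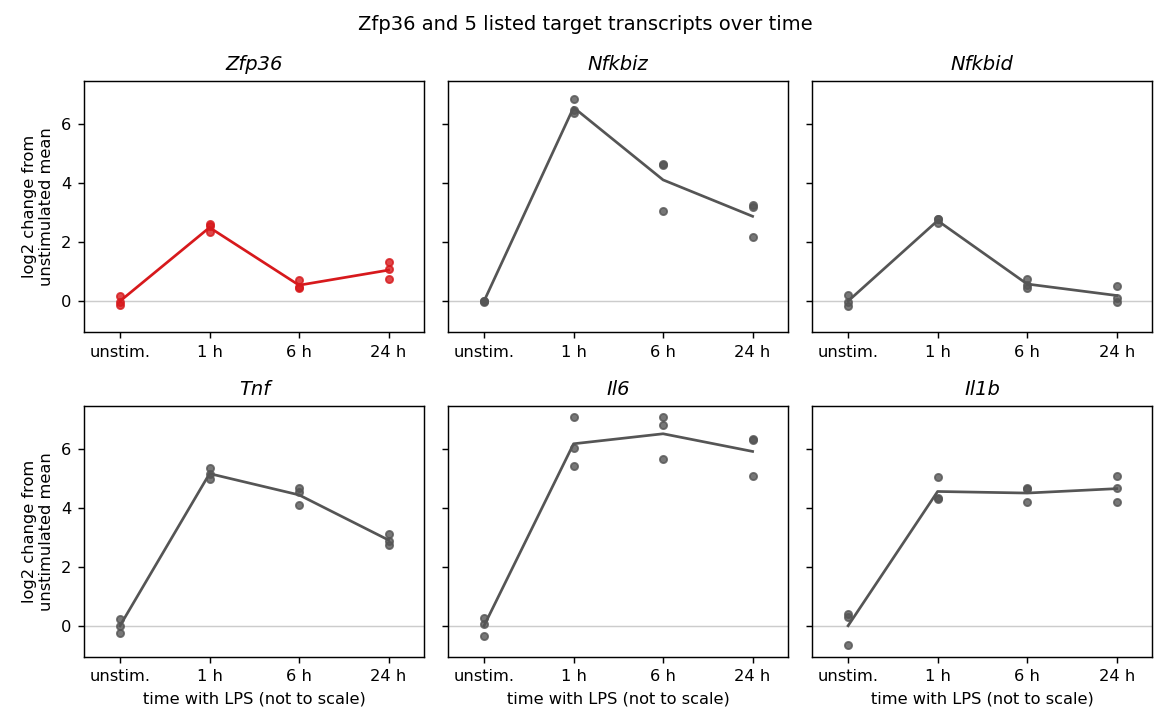
Log2 change from the mean of the unstimulated arrays (vertical axis) for Zfp36 (red) and 5 listed target transcripts (grey) by time with LPS; points are arrays, lines join the means of 3, and the times are not to scale. Zfp36, Nfkbid and Nfkbiz are highest at 1 h, Tnf declines to 24 h, and Il6 and Il1b stay up.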

How the data were processed

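The deposited files come, per the file headers, from Agilent Feature Extraction 10.7.3.1 and give the median intensity of spot and local background in both channels, not normalized, beside signals processed by that software. The authors' deposited value table holds log2 ratios made with limma, per the submitters' processing notes, and each array's column correlated with the ratios used here (r from 0.999 up). In R 4.3.3 with limma 3.58.1, local backgrounds marked as outliers were replaced by the array's median, signals were corrected with normexp (offset 50), and loess was applied to the ratios of each array (span 0.3, 1639 control spots at weight 0). The design named mean signals, but the files hold medians.

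Of 41174 probes, 22951 had a symbol through their accession. Probes well above background in Cy5 on all 3 arrays of at least 1 group were kept (21750), and the brightest per gene was used (11095 genes). Limma was fitted with 1 mean per group to 12 arrays (8 residual degrees of freedom), with two-sided moderated tests and Benjamini-Hochberg adjustment over all genes, and genes with an adjusted p under 0.05 were called. The fit was also run on simulated data for the 1 h comparison, built from these arrays' gene means and spreads without a slide effect. Its outcome is not given here. Intervals are 95% intervals of the fit. A bound, like the Cy5 ratios of Zc3h12a, takes the bright group's mean Cy5 signal over the higher of the lowest signal called above background and the dim probe's own.

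All 7 members were to be named, with up to 4 genes of each list by the size of their called change against unstimulated cells, and every target; 1 gene that this rule names is not reported here. Members, lists and tests were chosen with earlier results of these data known. Donor letters come from the labels, which do not say whether they mark the same animals across groups, so the letter was used as a block only in an alternative. Other alternatives changed the background, scaling, filter, probe rule, slide and arrays. Promoter sequences are from RefSeq (GRCm38.p6), which held windows for 6 of the 7 members. The array files name another build, so no probe coordinates are given.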

Additional observations from a re-analysis of the deposited data

Results flagged for a closer look

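The second probe of Zfp36, which the comparisons by gene did not use because it is the dimmer of 2, was highest at 1 h as well. It passed the filter only through its 1 h arrays and was well above background on none of the unstimulated and 6 h arrays and on 1 of 3 at 24 h, so the values that follow are descriptions and not sizes of a change. Its log2 difference between 1 h and unstimulated cells was 0.62 (adjusted p = 0.0068 in limma's fit over all probes). It was -0.50 from 1 h to 6 h (adjusted p = 0.0085) and -0.49 from 1 h to 24 h (adjusted p = 0.0089). The 3 values of each group were -0.04, 0.00 and -0.17 in unstimulated cells, 0.34, 0.79 and 0.51 at 1 h, 0.04, 0.04 and 0.08 at 6 h, and 0.04, 0.05 and 0.07 at 24 h.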

How the results depend on the processing

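Across 36 changes of members, 426 of 498 values under other processing and 395 of 432 with 1 array left out were counted as the same. For a fit this means that direction and side of the threshold were kept. The 498 include 1 value within slides per change, which has no p-value. Such a value was counted as the same when within 1 residual SD of the main value, so the sign of an uncalled change could turn. The rise of Zfp36 at 1 h and at 24 h, its fall from 1 h, and the 24 h change of Elavl1 kept their call in every fit. Each alternative used the chosen probe or a mean that includes it. The second probes did not show the 24 h changes in limma's fit over all probes. The dim one of Zfp36 was at 0.12 (adjusted p = 0.46) and that of Elavl1 at 0.10 (adjusted p = 0.58). The number of members called changed as follows, and where no reason is given the cause was not tested. At 1 h (1 called) it was 2 with processed signals, with Cy5 alone and without slide 2, an alternative chosen after seeing the data, and 3 with the donor letter as a block; at 6 h (3) it was 1 with median centring and 0 with slide as a block, which has 5 residual degrees of freedom, 2 with backgrounds as deposited or the mean of probes, and 4 with processed signals or without slide 2, which add Zc3h12a. At 24 h (2) it was 3 with processed signals. Calls of Zc3h12a against unstimulated cells rest on a level that was not measured there and are descriptions. From 1 h to 6 h (2) it was 1 with backgrounds as deposited and with median centring. From 6 h to 24 h (2) it was 0 with backgrounds as deposited, an offset of 10 or the slide block, and 1 with processed signals, median centring, Cy5 alone, the mean of probes or without slide 2. From 1 h to 24 h (3) it was 1 with median centring and 2 with backgrounds as deposited, Cy5 alone, the mean of probes, the slide block or without slide 2. With 1 array left out these counts ran from 1 to 2 at 1 h, 1 to 3 at 6 h, 2 to 2 at 24 h, 1 to 2 from 1 h to 6 h, 0 to 2 from 6 h to 24 h and 1 to 3 from 1 h to 24 h. The block of donor letters, with 6 residual degrees of freedom, newly called Zfp36l1 (0.69) and Zc3h12a (1.06, adjusted p = 0.05) at 1 h and lost no member's call. Deviations from group means of arrays with the same letter had correlations of -0.21 to 0.58 (18 pairs, median 0.11), so the letters were not taken to pair the samples.

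Signs turned for changes that were not called. Within slides, Zfp36l1 was 0.45 at 24 h, and Zfp36l2 was 0.46 at 6 h and 0.19 from 1 h to 6 h. There Zc3h12a was -0.34 at 24 h, 0.01 from 1 h to 6 h and -0.16 from 6 h to 24 h. Rc3h1 within slides was -0.39 at 24 h. The turns in the fits were as follows. Zfp36l1 at 6 h was 0.02 with an offset of 10, 0.09 with median centring, 0.20 with slide as a block and 0.02 with slide as a random block, and at 24 h 0.13 with the slide block. Zfp36l2 at 6 h was 0.09 with processed signals, 0.06 with median centring, 0.08 with Cy5 alone, 0.32 with the slide block and 0.05 with the random block; from 1 h to 6 h it was 0.06 with the slide block, and from 1 h to 24 h 0.02, 0.12, 0.06 and 0.00 with processed signals, Cy5 alone, the slide block and without slide 2. Zc3h12a at 24 h was -0.09 with the slide block, from 1 h to 6 h 0.02 without slide 2, and from 6 h to 24 h -0.53 with processed signals, -0.35 with the slide block and -0.22 without slide 2. Rc3h1 at 24 h was -0.04, -0.06 and -0.12 with processed signals, Cy5 alone and the slide block, and from 1 h to 6 h -0.06 with backgrounds as deposited. Elavl1 from 1 h to 6 h was 0.23 with median centring and 0.03 with Cy5 alone. With 1 array left out, the ranges of changes that turned sign were -0.17 to 0.24 for Zfp36l1 at 6 h and -0.35 to 0.06 from 6 h to 24 h, -0.25 to 0.16 for Zfp36l2 at 6 h and -0.27 to 0.20 from 1 h to 24 h, -0.88 to 0.02, -0.22 to 0.40 and -0.79 to 0.20 for Zc3h12a from 1 h to 6 h, 6 h to 24 h and 1 h to 24 h, and -0.01 to 0.11 for Rc3h1 at 24 h.

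Over all genes, 825 were called at 1 h, against 225 with median centring or the slide block and 243 with backgrounds as deposited. At 6 h the count was 4396, against 2017, 1957 and 2438 in the same order, and at 24 h 4367, against 2335, 1761 and 3030. From 1 h to 6 h it was 3124, against 1452, 2730 and 1378, from 6 h to 24 h 2040, against 927, 868 and 798, and from 1 h to 24 h 3196, against 1113, 2528 and 1821. The 1 h count fell to 338 or 356 without the unstimulated array of donor A or B, 528 or 402 without the 1 h array of A or B, and 474 without slide 2, and that from 6 h to 24 h to 1079 or 1289 without the 6 h array of A or B and 1271 without the 24 h array of C. With 3 arrays a group and, for Zc3h12a, a signal near background, small changes cannot be resolved.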
